A study of Rattus norvegicus with 9 samples.

Results

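The 9 genes described here are transcription factors and secreted proteins of the ventral midline of the embryonic midbrain and of the dopaminergic neurons that form there: Nr4a2, Pitx3, Foxa1, Foxa2, Otx2, Shh, Spon1, Msx1 and Msx2. They were chosen by symbol in the annotation of the array, as 9 of 10411 genes that had a probe set with 1 symbol alone. They had 12 of the 15866 probe sets tested. Nr4a2, Otx2 and Msx2 had 2 probe sets each, and the one with the higher mean over all arrays was used, with the other beside it. The samples were rat ventral midbrain of embryonic day 11 (MesE11, 3 arrays) and primary cultures of dissociated ventral midbrain cells kept for 9 days in vitro (MesPC, 6 arrays). No treatment, genotype or strain is named for either group. The tissue samples are pools: embryos of 4 rats were mixed into 3 groups, and the cultures were set up in duplicate from each group. Their labels also speak of 3 independent culture samples, although 6 culture arrays are listed, so the 6 may not be 6 independent cultures, and p-values then measure only the spread between these arrays.

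In the embryo, the floor plate is the strip of cells along the ventral midline of the neural tube. It secretes Shh, and in the midbrain its progenitors, which express Foxa1, Foxa2, Otx2 and Msx1, give rise to dopaminergic neurons. Nr4a2 and Pitx3 come on as these neurons leave the cell cycle, and they act on genes of dopamine synthesis and transport. Msx1 and Msx2 also mark the dorsal midline and respond to BMP signals there.

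In culture, the factors of the postmitotic dopaminergic neuron were lower than in the embryonic midbrain, and several genes of the floor plate and its progenitors were higher. The cultures were 9 days older than the tissue, and no tissue of that age was measured. Age and culture therefore cannot be told apart in any of these differences. Nr4a2 was 2.88-fold lower and Pitx3 1.35-fold lower. Spon1 was 1.74-fold higher, Shh 1.47-fold and Msx1 1.36-fold. Otx2 was 1.83-fold higher on its brighter probe set and 1.19-fold lower on its dimmer one, with a log2 rise of 0.31 over the mean of both in place of 0.87. Foxa1 and Foxa2 did not pass the test, and Msx2 was 1.15-fold lower at an adjusted p close to the threshold. Values are log2 intensities made by RMA, differences are MesPC minus MesE11 ± the moderated standard error from limma, and "passed" means a Benjamini-Hochberg adjusted p under 0.05 over all 15866 probe sets.

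Of the 9 genes, 4 passed as higher and 3 as lower in culture. Over all 10411 genes, 21.9% passed as higher and 22.7% as lower, so change in itself was common on these arrays. All 6 culture values lay above all 3 tissue values for 4 of the 9 genes and below them for 2, where the shares over all genes were 21.1% and 23.3%. The median difference of the 9 genes was 0.16, against −0.06 for all genes. Because bulk RNA was measured, fewer cells of a type and less RNA per cell cannot be told apart.

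**Figure D1:**
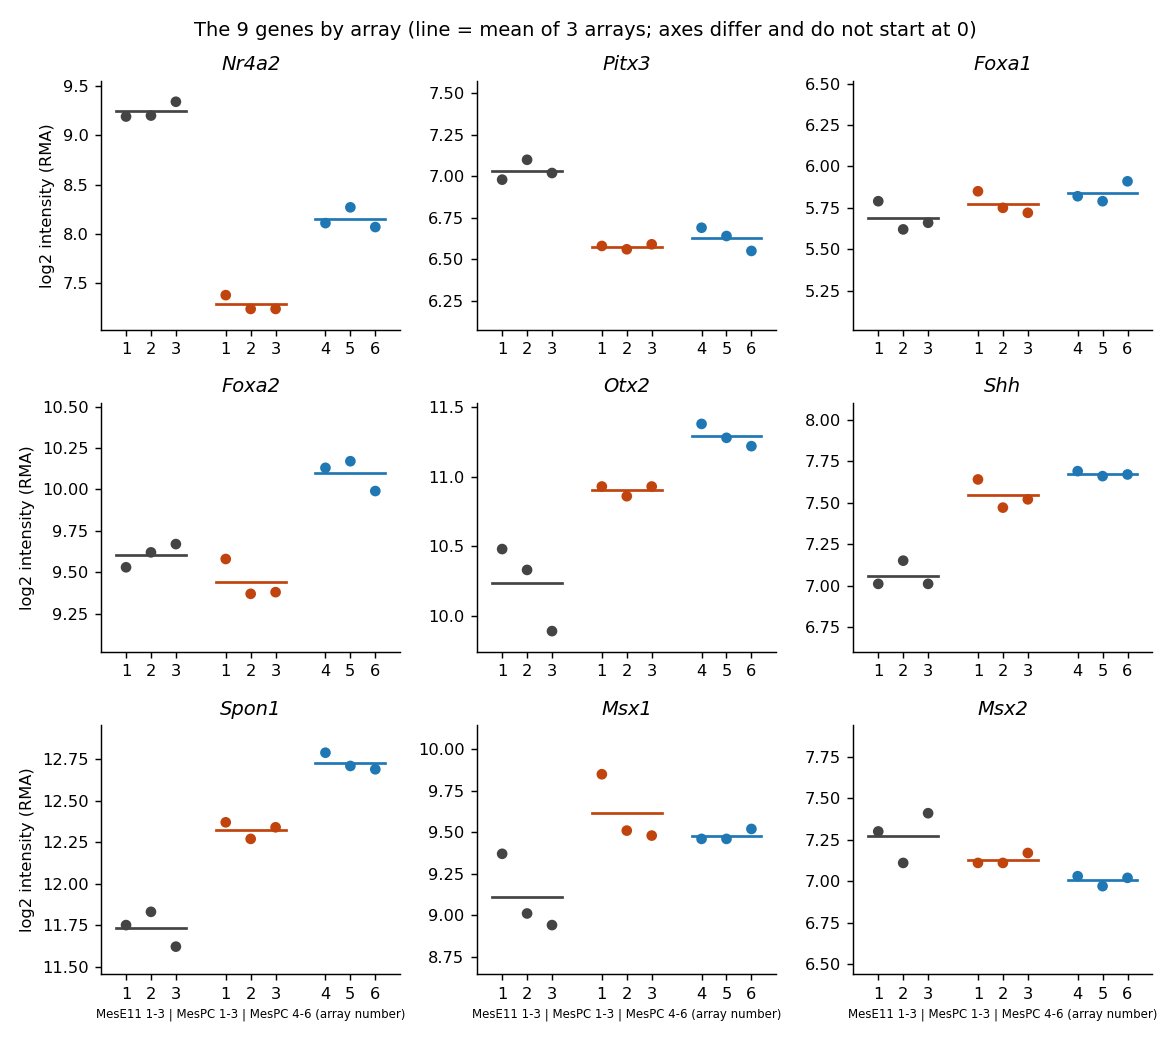
Log2 intensity of the 9 genes (vertical axes, which differ between panels and do not start at 0) on each of the 9 arrays, with tissue in grey, culture arrays 1 to 3 in orange, culture arrays 4 to 6 in blue and a line at the mean of each set of 3. Nr4a2 and Pitx3 lie lower in all 6 culture arrays, Otx2, Shh, Spon1 and Msx1 lie higher in all 6, and Nr4a2, Foxa2, Otx2, Shh and Spon1 lie higher in arrays 4 to 6 than in arrays 1 to 3.

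The culture arrays did not form 1 uniform group. Pearson's r over the probe sets of a pair of arrays, which are no replicates of each other, was 0.997 to 0.998 within arrays 1 to 3 and within arrays 4 to 6, and 0.982 to 0.987 between these sets. The labels name nothing that sets them apart. The split was seen in the values, so the sets are compared with each other here without a test. Marker genes of other cell types moved with both contrasts. The mean over 11 pan-neuronal markers was 12.13 to 12.24 in tissue, 10.48 to 10.71 in culture arrays 1 to 3 and, in arrays 4 to 6, 11.64 to 11.68. The mean over 11 fibroblast and meninges markers was 7.72 to 7.96 in tissue, 10.14 to 10.24 in arrays 1 to 3 and, in arrays 4 to 6, 10.05 to 10.06, and 9 of the 11 were higher in culture. For 10 markers of cycling cells the means were 8.86 to 9.02, 10.46 to 10.56 and 9.86 to 10.03, with 9 of 10 higher. Of 9 neural progenitor markers 6 were higher and 1 lower in culture, with means of 10.27 to 10.55 in tissue, 11.05 to 11.13 in arrays 1 to 3 and, in arrays 4 to 6, 10.90 to 10.94. Of 9 astrocyte markers 7 were higher and 0 lower, with means of 9.17 to 9.43, 10.34 to 10.41 and 10.16 to 10.25. Markers of blood and vessels were lower. Erythroid markers were lower in 5 of 6 cases, with means of 10.46 to 10.78 in tissue and, over both culture sets, 6.98 to 7.41. Endothelial markers were lower in 4 of 5 cases, with means of 8.25 to 8.32 in tissue and, over both culture sets, 6.84 to 7.08. For comparison with these counts, 21.9% of all genes passed as higher in culture and 22.7% as lower. The part of any of these markers in the differences of the 9 genes was not tested.

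Nr4a2 encodes an orphan nuclear receptor, also called Nurr1, without which midbrain dopaminergic neurons do not acquire their transmitter. Its tissue arrays read 9.19, 9.20 and 9.34. Culture arrays 1 to 3 read 7.38, 7.24 and 7.24, and arrays 4 to 6 read 8.11, 8.27 and 8.07. Tissue was thus highest, arrays 4 to 6 lay between, and arrays 1 to 3 were lowest, with no overlap between any of the sets. Nr4a2 fell by 1.53 ± 0.25 on the log2 scale (limma adjusted p = 9.4e-04). It fell by 1.96 ± 0.07 in arrays 1 to 3 alone and by 1.10 ± 0.08 in arrays 4 to 6 alone, each with 3 tissue arrays (adjusted p = 3.3e-08 and 1.0e-06). The dimmer probe set fell by 1.02 ± 0.12 (adjusted p = 1.6e-04), from 7.67 to 7.84 in tissue to 6.91 to 6.98 in arrays 4 to 6 and, lowest, 6.47 to 6.70 in arrays 1 to 3. It thus had the same order of sets with a smaller difference, and in 2 arrays of culture, both at 6.47, it lay in the range that control probe sets for bacterial genes read (4.80 to 6.68).

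Nr4a2 moved in the same order as the neuronal markers, and the size of its shift was set beside theirs, a comparison chosen after the values were seen. Nr4a2 minus the pan-neuronal mean of the same array was −2.96 to −2.90 in tissue, −3.48 to −3.24 in culture arrays 1 to 3 and, in arrays 4 to 6, −3.61 to −3.37. Nr4a2 was therefore lower in all 6 culture arrays also relative to this mean, although by less than in the plain values. On this scale the culture sets overlapped. The result holds for the mean and not for each marker. Nefm fell by 2.05 and Nefl by 1.59, more than Nr4a2 at 1.53. The other markers fell by less, from 1.44 for Ina to 0.18 for Map2. The same quantity for Th, tyrosine hydroxylase, was −0.79 to −0.48 in tissue, −2.44 to −2.30 in arrays 1 to 3 and, in arrays 4 to 6, −3.16 to −2.83. For Pitx3 it was −5.22 to −5.03, −4.12 to −3.92 and −5.13 to −4.95. Pitx3 read at or just above the bacterial control range in culture and could hardly have read lower there, so nothing is drawn from its values on this scale. The level of each difference has no meaning between genes, and only its change between arrays is read.

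Pitx3 is a homeobox factor that, within the brain, is found in midbrain dopaminergic neurons. It read 6.98, 7.10 and 7.02 in tissue, 6.58, 6.56 and 6.59 in culture arrays 1 to 3 and 6.69, 6.64 and 6.55 in arrays 4 to 6. All culture values were below all tissue values, and the culture sets overlapped. Pitx3 fell by 0.43 ± 0.05 (adjusted p = 1.8e-04), by 0.46 ± 0.06 in arrays 1 to 3 alone and by 0.41 ± 0.07 in arrays 4 to 6 alone. In 5 of the 6 culture arrays it lay within the range of 4.80 to 6.68 that 27 control probe sets for bacterial genes read on these arrays, and in tissue it lay just above that range. Near that range a difference in RNA can give a smaller difference in signal.

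Upstream sequences of Nr4a2 and Pitx3 and of 3 genes on which they are known to act are shown because the brightest probe set of each of these 5 genes fell in culture. Each is the 250 bases before the gene's start in RefSeq, build GRCr8, written 5′ to 3′ on the strand of the gene. The table held 5 of the 9 genes, Nr4a2, Pitx3, Foxa2, Msx1 and Msx2. Capitals mark matches on either strand to AAAGGTCA, the NBRE that Nr4a2 binds as a monomer, TAATCC of Otx and Pitx factors, TGTTTAC of Foxa factors, GACCACCCA of Gli factors, or TGACGTCA, the cyclic AMP response element, the last added after the sequences were seen.
Nr4a2, chr3:62104888-62105137, minus strand: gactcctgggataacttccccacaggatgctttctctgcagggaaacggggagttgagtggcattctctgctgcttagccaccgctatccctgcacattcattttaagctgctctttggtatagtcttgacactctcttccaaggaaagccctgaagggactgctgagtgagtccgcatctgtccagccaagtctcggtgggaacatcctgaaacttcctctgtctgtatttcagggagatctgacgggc
Pitx3, chr1:254955326-254955575, minus strand: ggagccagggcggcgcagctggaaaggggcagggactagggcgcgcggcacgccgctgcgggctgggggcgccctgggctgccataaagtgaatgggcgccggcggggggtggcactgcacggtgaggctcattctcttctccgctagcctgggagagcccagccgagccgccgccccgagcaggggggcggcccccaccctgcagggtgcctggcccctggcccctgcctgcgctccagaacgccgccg
Th, chr1:207508219-207508468, minus strand: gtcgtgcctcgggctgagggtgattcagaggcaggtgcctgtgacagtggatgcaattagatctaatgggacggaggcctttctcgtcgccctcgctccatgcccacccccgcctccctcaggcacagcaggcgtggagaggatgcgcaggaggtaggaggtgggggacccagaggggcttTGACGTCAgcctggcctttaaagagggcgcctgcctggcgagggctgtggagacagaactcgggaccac
Ddc, chr14:90682784-90683033, minus strand: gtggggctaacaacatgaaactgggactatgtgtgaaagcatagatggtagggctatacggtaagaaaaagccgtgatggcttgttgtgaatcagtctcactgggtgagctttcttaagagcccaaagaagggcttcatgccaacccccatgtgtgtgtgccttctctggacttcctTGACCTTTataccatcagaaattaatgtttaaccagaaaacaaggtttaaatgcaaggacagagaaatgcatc
Slc18a2, chr1:268399771-268400020, plus strand: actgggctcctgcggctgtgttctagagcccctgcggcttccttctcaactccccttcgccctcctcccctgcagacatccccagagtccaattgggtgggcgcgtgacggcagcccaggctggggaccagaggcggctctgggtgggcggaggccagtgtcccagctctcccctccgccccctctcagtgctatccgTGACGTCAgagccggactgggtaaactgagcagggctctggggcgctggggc

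Of the 5 windows shown, that of Ddc held the NBRE, on the strand opposite to the gene from 73 to 66 bases before the start. Th and Slc18a2 each held the cyclic AMP response element, from 69 to 62 and from 52 to 45 bases before the start. No listed motif matched in the windows of Nr4a2, Pitx3, Foxa2, Msx1 or Msx2. Of 33469 upstream windows of this length in the table, 1.24% held the NBRE, 6.34% the Otx and Pitx motif, 3.21% the Foxa motif, 0.338% the Gli motif and 1.59% the response element. Ddc has 3 starts in the table, of which the first listed, furthest upstream, is shown, and the others held no match. Which of these starts was used in tissue or culture was not measured. The window of Slc6a3, the dopamine transporter, held no match either. These are matches of letters, and binding was not measured.

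Foxa2 and Foxa1 are forkhead factors that open chromatin in floor plate progenitors and remain on in dopaminergic neurons. Foxa2 read 9.53, 9.62 and 9.67 in tissue, 9.58, 9.37 and 9.38 in culture arrays 1 to 3 and 10.13, 10.17 and 9.99 in arrays 4 to 6. Arrays 1 to 3 overlapped tissue, whereas arrays 4 to 6 lay above both. Over all arrays the difference was 0.16 ± 0.19 and did not pass (adjusted p = 0.498). It was −0.16 ± 0.08 in arrays 1 to 3 alone (adjusted p = 0.11), and Foxa2 rose by 0.49 ± 0.08 (adjusted p = 3.7e-04) when arrays 4 to 6 were taken. The sign of its difference thus depended on which culture arrays were taken. Foxa1 read 5.62 to 5.79 in tissue and 5.72 to 5.91 in culture, within the range of the bacterial controls on all 9 arrays. Its difference was 0.12 ± 0.06 (adjusted p = 0.133), and after a further quantile normalization it passed as higher (0.20, adjusted p = 0.0299). At this signal no firm statement on Foxa1 can be made.

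Otx2 is the homeobox factor that sets forebrain and midbrain apart from hindbrain and is needed in midbrain dopaminergic progenitors. On its brighter probe set it read 10.48, 10.33 and 9.89 in tissue, 10.93, 10.86 and 10.93 in culture arrays 1 to 3 and 11.38, 11.28 and 11.22 in arrays 4 to 6. The sets did not overlap, and arrays 4 to 6 were highest. Otx2 rose by 0.87 ± 0.15 (adjusted p = 0.00149), by 0.68 ± 0.13 in arrays 1 to 3 alone and by 1.06 ± 0.13 in arrays 4 to 6 alone. The dimmer probe set went the other way: it read 7.67 to 7.74 in tissue, 7.52 to 7.57 in arrays 1 to 3 and, in arrays 4 to 6, 7.28 to 7.41, and fell by 0.25 ± 0.07 (adjusted p = 0.0219). Here too the sets did not overlap, in reverse order. The mean of both probe sets rose by 0.31 (adjusted p = 0.00537). The call of the dimmer probe set ended without any 1 tissue array, with differences of −0.26, −0.23 and −0.25 without MesE11 replicate 1, 2 and 3 (adjusted p = 0.0526, 0.0723 and 0.0588).

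**Figure D2:**
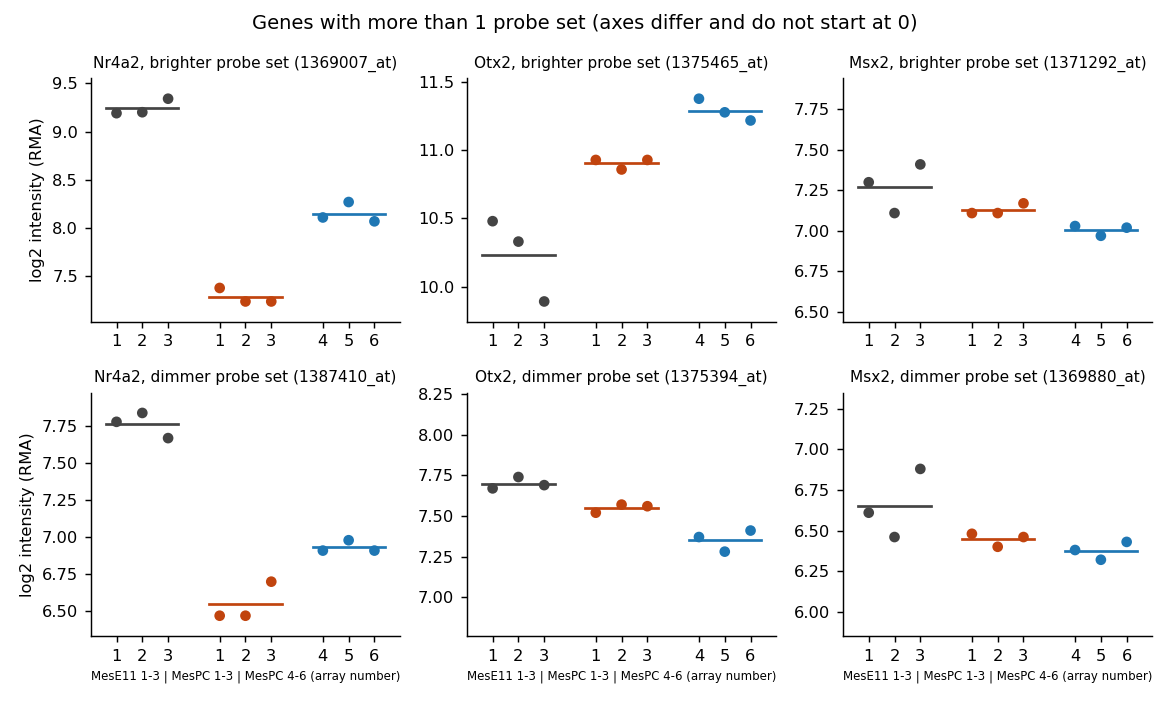
Log2 intensity (vertical axes, which differ and do not start at 0) of the brighter (top) and dimmer (bottom) probe set of Nr4a2, Otx2 and Msx2 on each of the 9 arrays, coloured grey for tissue, orange for culture arrays 1 to 3 and blue for arrays 4 to 6, with a line at each mean of 3 arrays. Both probe sets of Nr4a2 fell in culture, the brighter by 1.53 and the dimmer by 1.02, and both of Msx2 were lower (−0.20 and −0.24), while those of Otx2 had opposite signs (0.87 and −0.25).

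Shh, the morphogen that the floor plate secretes, read 7.01, 7.15 and 7.01 in tissue, 7.64, 7.47 and 7.52 in culture arrays 1 to 3 and 7.69, 7.66 and 7.67 in arrays 4 to 6. Every culture value was above every tissue value, and arrays 4 to 6 lay above arrays 1 to 3 by a mean of 0.13. Shh rose by 0.55 ± 0.07 (adjusted p = 1.4e-04), by 0.49 ± 0.07 in arrays 1 to 3 alone and by 0.62 ± 0.07 in arrays 4 to 6 alone. Its tissue values, like those of Pitx3, lay just above the bacterial control range of 4.80 to 6.68, so the size of this rise is uncertain. Spon1 encodes F-spondin, a matrix protein that floor plate cells secrete and that guides commissural axons. It read 11.75, 11.83 and 11.62 in tissue, 12.37, 12.27 and 12.34 in arrays 1 to 3 and 12.79, 12.71 and 12.69 in arrays 4 to 6. As with Shh, the sets did not overlap and arrays 4 to 6 were highest. Spon1 rose by 0.80 ± 0.12 (adjusted p = 8.0e-04), from a tissue mean of 11.73 to means of 12.33 in arrays 1 to 3 and, in arrays 4 to 6, of 12.73 (adjusted p = 7.1e-05 and 1.6e-06 for either set alone).

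Msx1 and Msx2 are related homeobox repressors, of which Msx1 also acts in midbrain dopaminergic progenitors. Msx1 read 9.37, 9.01 and 8.94 in tissue, 9.85, 9.51 and 9.48 in culture arrays 1 to 3 and 9.46, 9.46 and 9.52 in arrays 4 to 6. The culture values were all above the tissue values, by 0.09 at the nearest, and the culture sets overlapped. Msx1 rose by 0.44 ± 0.11 (adjusted p = 0.0116). The call ended without MesE11 replicate 2 or 3, with differences of 0.39 and 0.36 (adjusted p = 0.0516 and 0.0628), and with the culture sets and the tissue arrays as a random block (adjusted p = 0.129). Msx2 read 7.30, 7.11 and 7.41 in tissue, 7.11, 7.11 and 7.17 in arrays 1 to 3 and 7.03, 6.97 and 7.02 in arrays 4 to 6, so culture and tissue overlapped. Its difference was −0.20 ± 0.07 (adjusted p = 0.0484), and that of the dimmer probe set −0.24 ± 0.08 (adjusted p = 0.0447). The Msx2 call ended without MesE11 replicate 1 or 3 or without any 1 of MesPC replicates 1, 2, 4, 5 and 6, with differences from −0.21 to −0.13 (adjusted p from 0.0609 to 0.208), and with the random block (adjusted p = 0.269). In arrays 1 to 3 alone Msx2 did not pass (−0.14, adjusted p = 0.17). The dimmer probe set stayed inside the bacterial control range on 8 of 9 arrays, and its call ended without any 1 array other than MesE11 replicate 2 (differences from −0.26 to −0.12).

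**Figure D3:**
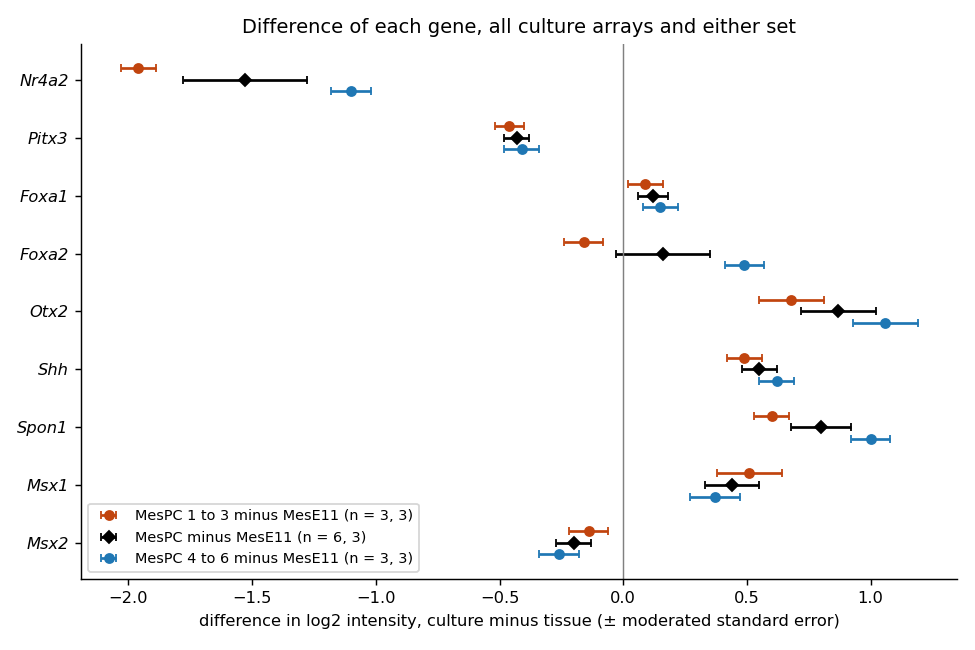
Difference in log2 intensity between culture and tissue for the 9 genes (horizontal axis, ± moderated standard error), for all 6 culture arrays (black), arrays 1 to 3 (orange) and arrays 4 to 6 (blue), each against the 3 tissue arrays. The differences of Otx2, Shh, Spon1 and Msx1 are above 0 and those of Nr4a2, Pitx3 and Msx2 below 0 in both sets, while Foxa2 lies at −0.16 in arrays 1 to 3 and 0.49 in arrays 4 to 6.

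Of the 9 genes, 5 had all values of culture arrays 4 to 6 above those of arrays 1 to 3 (Nr4a2, Foxa2, Otx2, Shh and Spon1) and 1, Msx2, had them below. Over all genes these shares were 22.4% and 26.0%, and nothing is read from the count, since the sets were seen in these values. The difference between set means was 0.86 for Nr4a2, 0.65 for Foxa2, 0.40 for Spon1, 0.38 for Otx2 and 0.13 for Shh. It was −0.12 for Msx2, −0.13 for Msx1, 0.07 for Foxa1 and 0.05 for Pitx3. Against tissue, 4 genes passed as higher and 2 as lower with arrays 1 to 3 alone, where 25.7% and 27.0% of all genes did. With arrays 4 to 6 alone 5 passed as higher, Foxa2 being added, and 3 as lower, where 22.9% and 27.2% of all genes did. These comparisons share the 3 tissue arrays. With the sets and the tissue as a random block 3 of the 9 passed as higher (Otx2, Shh and Spon1) and 2 as lower (Nr4a2 and Pitx3), against 13.2% and 9.11% of all genes. This setting used 1 correlation, 0.447, for all genes, and the tissue was a single block. The standard error of Nr4a2 was 0.25 with and without it, so passing does not show that a call holds beyond these culture sets.

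Of a Hedgehog list of 21 genes, 10 were measured, of which 2 were higher, 1 was lower and 7 did not pass (median 0.00, against −0.06 for all genes). Over all genes, 21.9% were higher and 22.7% lower. The list held genes of the pathway through which Shh acts, and also Ntn1 and Nkx6-1, which do not pass on its signal. Without these, Smo alone was higher. Ptch1 and Gli1, which are induced by the pathway, were not analysed here. Smo, the membrane protein that passes the signal on, rose by 1.38 ± 0.16 (adjusted p = 1.2e-04), from 8.19 to 8.74 in tissue to 9.51 to 9.80 in culture arrays 4 to 6 and, highest, 9.94 to 10.18 in arrays 1 to 3. Its further probe set rose by 0.91 ± 0.19 (adjusted p = 0.00366). Unlike Shh, Smo was thus lower in arrays 4 to 6 than in arrays 1 to 3. Ntn1, the axon guidance protein netrin 1 of the floor plate, rose by 1.39 ± 0.07 (adjusted p = 6.1e-07), from 11.12 to 11.40 to between 12.63 and 12.81 in the 6 culture arrays. Its further probe sets rose by 1.24 ± 0.19 and 0.70 ± 0.21. Boc, a receptor for Shh, had a difference of −0.45 ± 0.16 (adjusted p = 0.0468), and its call ended without any 1 tissue array (−0.49, −0.34 and −0.52 without MesE11 replicate 1, 2 and 3) and without MesPC replicate 2, 4, 5 or 6 (−0.47, −0.46, −0.39 and −0.37).

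Of 24 further genes of midbrain and floor plate patterning, 5 were measured. Wnt5a, a secreted ligand that promotes dopaminergic differentiation, rose by 0.46 ± 0.08 (adjusted p = 0.00162), and Fgf17, a growth factor of the midbrain-hindbrain boundary, fell by 0.39 ± 0.06 (adjusted p = 7.8e-04). Pax8, a paired box factor of the same boundary, fell by 0.25 ± 0.07 (adjusted p = 0.0236), a call that ended without MesE11 replicate 1 (−0.26) or 3 (−0.18). Pax8 stayed inside the bacterial control range in both groups. Fgf8, also within that range on all 9 arrays, did not pass (−0.18 ± 0.07, adjusted p = 0.0555). Pax6, a factor of more lateral progenitors, did not pass over all arrays (−0.40 ± 0.28), with 9.09 to 9.32 in tissue, 8.05 to 8.59 in culture arrays 1 to 3 and, in arrays 4 to 6, 9.09 to 9.33. The median of the 5 was −0.25.

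Dopaminergic neuron genes were measured in 18 of 22 cases, of which 13 were lower, 2 higher and 3 did not pass (median −0.66). The shares over all genes were 22.7% lower and 21.9% higher. Many of these genes are in an earlier result of these data, so their direction is not independent evidence. Sncg, gamma synuclein, fell by 3.11 ± 0.10, reaching the bacterial control range in 3 culture arrays. Th fell by 3.08 ± 0.14. Ddc, the next enzyme of dopamine synthesis, fell by 1.93 ± 0.44 on its brighter probe set, or −1.07 with its probe sets averaged. Its dimmer probe set did not pass (−0.21 ± 0.10, limma adjusted p = 0.122) and was lower in arrays 4 to 6 than in arrays 1 to 3. Nxph4, a neurexophilin, fell by 1.36 ± 0.09. Like Nr4a2, Th and the brighter probe set of Ddc were higher in culture arrays 4 to 6 (8.48 to 8.81 and 10.16 to 10.19) than in arrays 1 to 3 (8.19 to 8.27 and 8.35 to 8.75). Sncg was not (6.62 to 6.75 and 6.61 to 6.90). Slc18a2, the vesicular monoamine transporter, fell by 0.84 ± 0.11 with overlapping culture sets, and its dimmer probe set fell by 1.56 ± 0.19 with arrays 4 to 6 above arrays 1 to 3. Higher were Ret, the receptor kinase for GDNF family ligands, by 1.05 ± 0.09, and Maob, a monoamine oxidase also found in astrocytes, by 0.93 ± 0.19. With its 3 probe sets averaged Ret rose by 0.39. Maob read 7.98 to 8.27 in arrays 1 to 3 and, in arrays 4 to 6, 8.71 to 8.81.

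Among partners and relatives of the 9 genes, 19 of 28 were measured, with 5 higher, 4 lower and 10 that did not pass (median −0.04). These counts were near the shares over all genes, 21.9% higher and 22.7% lower. Nr4a3, which belongs to the same receptor family as Nr4a2, rose by 0.74 ± 0.09 (adjusted p = 1.9e-04). Its dimmer probe set differed by −0.09 ± 0.08, and with both averaged Nr4a3 rose by 0.33. Nr4a1, the third of this family, had a difference of −0.15 ± 0.09 and did not pass. Rxrg, a retinoid X receptor of the kind that pairs with Nr4a2, fell by 0.27 ± 0.08 (adjusted p = 0.0183), a call that ended without MesE11 replicate 1 (−0.20), and Rxra and Rxrb did not pass (−0.10 ± 0.07 and −0.12 ± 0.07). Pitx1, a relative of Pitx3, fell by 0.42 ± 0.08. Spon2, a relative of Spon1, fell by 0.24 ± 0.07 (adjusted p = 0.0159), which ended without MesE11 replicate 3 (−0.20). The families of Nr4a2 and of Spon1 thus each held members with opposite signs.

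The largest difference among the forkhead genes measured was that of Foxj1, which drives the formation of motile cilia. It rose by 1.77 ± 0.06 (adjusted p = 6.2e-08), from 7.93 to 8.02 in tissue to 9.63 to 9.86 in culture, with the culture sets overlapping. Foxo3 rose by 0.74 ± 0.06 on its brightest probe set, but the mean of its 3 probe sets did not pass (0.12, adjusted p = 0.11). Foxc2, a factor of mesenchyme, fell by 0.37 ± 0.08, and its mean did not pass either (−0.12, adjusted p = 0.165). Foxm1, which acts in dividing cells, rose by 0.48 ± 0.16 (adjusted p = 0.0351), by 0.74 in arrays 1 to 3 alone and by 0.22 in arrays 4 to 6 alone. That call ended without any 1 tissue array (0.41, 0.49 and 0.55 without MesE11 replicate 1, 2 and 3) or any 1 of MesPC replicates 1, 2 and 3 (0.42, 0.42 and 0.46). With the random block the calls of Boc, Pax8, Rxrg, Pitx1, Foxm1 and Spon2 ended (adjusted p from 0.0587 to 0.211).

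In the BMP and Id list, whose signals regulate Msx1 and Msx2, 21 of 24 genes were measured, 7 of them higher, 3 lower and 11 that did not pass (median 0.19). Over all genes the shares were 21.9% higher and 22.7% lower. Id3, an inhibitor of bHLH factors that BMP signals induce, rose by 2.12 ± 0.16, Bmp7 by 1.16 ± 0.14 and Bmp2 by 0.65 ± 0.13 (0.34 with its probe sets averaged). Nog, noggin, which binds BMP proteins and blocks them, rose by 0.64 ± 0.13. Id4 fell by 0.78 ± 0.15 (−0.50 with its probe sets averaged). Fst, follistatin, an inhibitor of activins and BMP proteins, fell by 0.47 ± 0.07. The receptor gene Acvr2a fell by 0.39 ± 0.07. Ligands and 1 inhibitor, Nog, were thus among the genes that rose. Grem1, a further inhibitor, did not pass (0.19 ± 0.11), nor did Id1 and Id2 (0.45 ± 0.18 and 0.28 ± 0.20). Choroid plexus and roof plate markers, the tissue in which Msx genes are also on, were measured in 4 of 8 cases, with 0 higher and 1 lower. Their mean had a range of 7.38 to 7.61 on tissue arrays and of 7.11 to 7.43 on culture arrays, and Kl was within the range of the bacterial controls on every array.

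**Figure D4:**
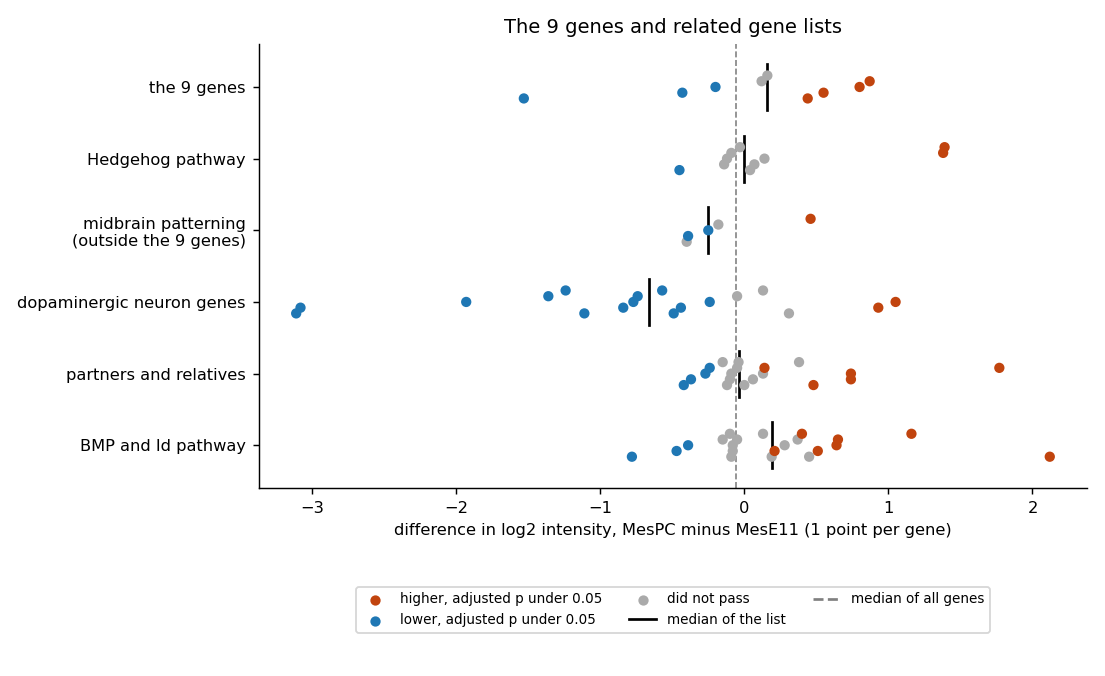
Difference in log2 intensity between culture and tissue (horizontal axis) for the 9 genes and for each measured gene of the 5 related lists, 1 point per gene, in orange where higher and blue where lower at an adjusted p under 0.05 and grey otherwise, with a black line at each list's median and a dashed line at −0.06, the median of all genes. The points of the 9 genes spread from −1.53 to 0.87, and dopaminergic neuron genes lie mostly below 0, with a median of −0.66.

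Genes whose pattern over the 9 arrays was most like that of Nr4a2, Otx2 and Spon1, the 3 genes that spanned 1 log2 unit or more, were looked for among 1487 other genes of such a span. The r values describe likeness on these arrays, which share the split between culture sets and the tissue. Nearest to Nr4a2 were Tmem179 (r = 0.998), Slc6a4, the serotonin transporter (0.995), and Dusp26, a phosphatase (0.995). Nearest to Otx2 were Atrn, attractin (0.984), Alcam, a cell adhesion protein (0.978), and Dkk3 (0.975). Nearest to Spon1 were Pamr1 (0.994), Atrn (0.992) and Nrbp2 (0.992). Atrn was thus on both of the last lists.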

How the data were processed

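Total RNA of 9 samples was hybridized to 1-colour Affymetrix rat arrays. The deposited values are log2 intensities that the authors made with RMA, per the submitters' processing notes; no version is given there. The lower and upper ends of the table were 4.69 and 14.78. RMA fits all arrays to nearly 1 distribution, so differences are relative to other probe sets. The 57 control probe sets of the 15923 were left out. Symbols came from the platform annotation: 12783 probe sets had 1 symbol and stood for 10411 genes, 312 had several, and 12748 of the first had their Entrez number in a RefSeq table (GRCr8), which changed 0 symbols.

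limma 3.58.1 in R 4.3.3 (lmFit, eBayes) compared MesPC with MesE11 across all 15866 probe sets, with Benjamini-Hochberg adjustment and a threshold of 0.05. It was tested on simulated data with independent noise on each array. Those data held no culture sets and no shared embryo groups, so they say nothing on error rates under the split seen here. Plots were drawn with matplotlib 3.10.9. The 9 genes and the lists were chosen with earlier results of these data known. From each list, up to 4 passing genes in each direction with the largest differences and non-overlapping groups were named; Boc, Slc18a2 and genes given as not passing were added after their values were seen. Precision is limited by how many arrays there were. The alternatives tried were other scalings, filters on dim probe sets, a variance trend, blocks, either culture set alone, averaging all probe sets of a gene and leaving out each array.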

Additional observations from a re-analysis of the deposited data

Results flagged for a closer look

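Among 38 sets of 6 culture values examined, 3 held 1 array far from the other 5, by a rule set to flag about 1 in 20 by chance. That rate need not hold for culture arrays that split into sets, or for genes read on the same arrays. Nothing is therefore read from the count. Msx1 read 9.85 in MesPC replicate 1, against 9.46 to 9.52 in the other 5. Without this array its difference still passed. Fgf17 read 6.47 in MesPC replicate 4, against 6.59 to 6.64. Nr4a3 read 8.84 in MesPC replicate 6, against 9.00 to 9.08.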

How the results depend on the processing

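Without the dimmest 40% of probe sets, 1 of the 9 genes passed as lower, and without the dimmest 60% it was 0, as these filters left out 4 and 5 of the 9 (Pitx3, Foxa1, Shh and Msx2, and then Nr4a2 too). Over the 5 lists, 17 genes were higher and 23 lower. Without the dimmest 60% these counts were 6 and 7, without the dimmest 40% 14 were lower, and with the random block 14 were lower. With that random block the share of all genes that were lower was 9.11%, in place of 22.7%. Foxa2 changed sign to −0.161 in culture arrays 1 to 3 alone, and also with the replicate block, which used arrays 1 to 3 of both groups (−0.161, adjusted p = 0.154). With that block Nr4a2, Pitx3, Otx2, Shh, Spon1 and Msx1 passed in the same direction, and Msx2 did not (−0.144, adjusted p = 0.157). Under quantile normalization Foxa1 passed (0.201, adjusted p = 0.0299) and Msx2 did not (−0.0937, adjusted p = 0.255), nor did it when centred on ribosomal protein probe sets (−0.234, adjusted p = 0.0539); the cause was not tested. Pax8 and Foxm1 did not pass under quantile normalization either (adjusted p = 0.142 and 0.0621). Pitx3 still passed there, with a smaller fall of −0.312 in place of −0.433, and so did the dimmer probe set of Otx2 (−0.173 in place of −0.246). Shh rose by more, 0.65 in place of 0.554. Before this step the lower quartile of all probe sets was 7.15 to 7.21 on tissue arrays and 6.98 to 7.11 on culture arrays. The medians were 8.61 in tissue and 8.62 to 8.67 in culture. Dim probe sets as a whole thus read somewhat lower in culture, and small falls of dim genes need not be particular to those genes. The part of this shift in their differences was not tested. Nr4a2, Pitx3, Otx2, Shh and Spon1 kept direction and call under every alternative that held them. Signal near the bacterial controls limits Foxa1, Pitx3, Shh and Msx2. For arrays that share a replicate number from 1 to 3, deviations from the group means correlated over probe sets at 0.0836, −0.119 and −0.111. With MesE11 replicate 3, arrays of another number gave 0.257 (MesPC replicate 2) and −0.136 (MesPC replicate 1). Deviations within sets of 3 arrays are not independent, so these values cannot show which arrays share an embryo group. MesE11 replicates 1, 2 and 3 correlated at 0.240, 0.134 and 0.363 with MesPC replicates 4, 5 and 6, the highest value of each of these culture arrays; no label gives this pairing. With that pairing as a replicate block, an alternative chosen after seeing the data, 5 of the 9 genes passed as higher and 3 as lower, the counts of arrays 4 to 6 alone, with Nr4a2 at −1.10.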
